A study of Homo sapiens with 2 samples.

Results

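Distal segments of alternative 3' ends are the stretches of a last exon that only the longer isoforms of a gene carry. They were taken from the isoform models of both libraries. A gene was a member where at least 2 isoforms shared the 5' start of their last exon and had 3' ends at least 500 nt apart. The distal segment ran from the most proximal to the most distal of these ends, and the rest of the last exon was the proximal segment. This rule found 3495 of 12869 genes (27.2%), of which 3347 had a C-to-U edit site listed in either library and 2966 in both. At the limit, ARPC3, CERS6, COPA and JMJD1C spanned exactly 500 nt, whereas MAP4K4, EIF5A and SIRT7 at 499 nt and ZSCAN12 at 498 nt were not members.

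The edits come from INSCRIBE, in which APOBEC1, a cytidine deaminase, is fused to a nanobody that binds rabbit IgG and applied as purified protein to fixed cells. Both libraries came from methanol-fixed cells of an embryonic kidney line, labelled HEK293XT and called HEK293T in the methods, with no genetic change in either. The RBFOX2 library received a rabbit antibody to RBFOX2 and then the fusion, so cytosines near RBFOX2 could be converted to uracil, while the enzyme-only library received the fusion without that antibody. There was 1 PacBio library of full-length cDNA per group, so each comparison is between these 2 libraries, no p-value was computed, and intervals are exact 95% intervals that cover counting error only. The RBFOX2 library had 121930 sites in 10199 genes and the enzyme-only one 103684 in 10182, with summed gene reads of 2431345 and 2233600. Reads were given per gene, not per isoform or position, so how many reads reached into a distal segment is unknown. Among genes taken as markers of HEK293T cells, KRT18 had 417 and 411 reads, NEFM 281 and 263, and CDH2 207 and 221. VIM had 1367 in the RBFOX2 table only, and KRT8 and PAX2 had 23 and 3 in the enzyme-only table only. PTPRC, ALB, HBA1, HBB, INS and CD3E were in neither table, and of these only HBA1 had an isoform model. Genes without a listed edit site do not appear there, so a missing gene may still be expressed.

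A transcript ends where the cleavage and polyadenylation machinery cuts it, usually a short way 3' of the hexamer AAUAAA or a close variant such as AUUAAA. Many genes carry several such signals in 1 last exon, so their transcripts share the coding sequence and differ in the length of the 3'UTR. The added stretch can hold binding sites for microRNAs and RNA-binding proteins that the short form lacks. RBFOX2, best known as a splicing regulator, binds UGCAUG, and it also binds 3'UTRs.

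The following windows of 30 nt in hg38 show what was counted, in DNA letters with T for U and in the direction of the transcript. They are the windows with the most listed RBFOX2 sites around a distal UGCAUG in ENAH, COPS7A, ARL2BP and STMP1, which rank among the members with the most RBFOX2 sites near that motif, and in DEPDC1, a gene the study discussed. Capitals mark TGCATG and the cytosines listed as edited in the RBFOX2 library only.
ENAH, chr1:225496868-225496897, minus strand: tgCagaCagtaaTGCATGtcacaCtaatat
COPS7A, chr12:6731408-6731437, plus strand: cccatCcCTGCATGcctgatCcccagttCC
ARL2BP, chr16:57253168-57253197, plus strand: CCtatagCatgttagtgtgttTGCATGttt
STMP1, chr7:135674809-135674838, plus strand: gtCtatttagtgTGCATGtttttCCttaat
DEPDC1, chr1:68475017-68475046, minus strand: TGCATGtaaagtgttagcacagtgtctcaC
In the ARL2BP window the cytosine inside the motif was itself among the 4 listed ones. The enzyme-only library had 1 unshared site in the COPS7A window and none in the others.

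The last 30 nt before the most proximal and the most distal end are shown for TMA16 and OGT, where a signal stands at both. Capitals mark AATAAA or ATTAAA.
TMA16 proximal end, chr4:163519526-163519555, plus strand: tgaattgaaAATAAAtaatttgagagcttc
TMA16 distal end, chr4:163520708-163520737, plus strand: taaattgcATTAAAgagaataagaactgct
OGT proximal end, chrX:71573791-71573820, plus strand: ataAATAAAgactgcacaggagaattaccc
OGT distal end, chrX:71575861-71575890, plus strand: cgatccttAATAAAtgaatgatttcccttt
The distal segment spans 1182 nt in TMA16 and 2070 nt in OGT.

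Distal segments were mostly long stretches of 3'UTR. Their length ran from 500 to 5058 nt with a median of 1171, against 18 to 3139 nt with a median of 359 for the proximal segments. Most members were protein-coding genes (3379), and 104 were lncRNA genes. The most proximal end lay in annotated 3'UTR in 2869 members (82.1%) and in annotated coding sequence in 436 (12.5%), and 2267 distal segments (64.9%) lay wholly in 3'UTR. A last exon had a median of 9 isoforms and 5 distinct ends, and in the median member 83.3% of its isoforms ended past the most proximal end. Since every isoform model counted, 1 model could set an end: 1650 members were left when each end had to be used by at least 2 isoforms within 20 nt.

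The signal sequence was found at distal ends more often than at proximal ones. AATAAA or ATTAAA stood within 40 nt before the distal end in 2584 members (73.9%) and before the proximal end in 1404 (40.2%). Genome sequence rich in A directly 3' of the end, where cDNA priming on internal A stretches can make a false end, was found at 279 distal ends (7.98%) and 540 proximal ends (15.5%). For proximal ends in coding sequence these shares were 11.5% with a signal and 35.1% rich in A. The part of internal priming in the proximal ends was not tested. Distal segments had a lower GC content than proximal ones (40.3% and 46.0%), a larger share of cytosines directly after A or U (52.6% and 47.6%), which APOBEC1 prefers, and a similar density of UGCAUG (0.296 and 0.275 per 1000 nt). At least 1 UGCAUG was present in 1064 distal (30.4%) and 394 proximal segments (11.3%).

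Edit density was lower in distal than in proximal segments in both libraries. Here and below only unshared sites count, those that a single library listed. Of 871638 distal cytosines, 1.88% (1.85 to 1.91; 16374 sites) were listed in the RBFOX2 library, against 1.25% (1.23 to 1.28; 10913 sites) in the enzyme-only one. Of 357545 proximal cytosines, 2.97% (2.92 to 3.03; 10632 sites) and 2.23% (2.18 to 2.28; 7960 sites) were listed. The distal density was therefore 0.632 of the proximal one in the RBFOX2 library, against 0.562 in the enzyme-only one. Isoforms that end at the proximal end cannot carry a distal site, and since reads were given per gene, fewer reads over a distal cytosine and less editing per read cannot be told apart. Restricting both segments to annotated 3'UTR lowered these values to 0.535 and 0.529.

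The density peaked just before the proximal end and fell on both sides of it. In the last 100 nt before that end 4.84% (4.67 to 5.01) of cytosines were listed in the RBFOX2 library, against 3.12% (2.98 to 3.26) in the enzyme-only one. In the first 100 nt past it the values were 3.45% (3.31 to 3.60) and 2.22% (2.10 to 2.34), a drop in both libraries that exceeded counting error. From 1001 to 1500 nt past the end they were 1.25% and 0.805%, and beyond 2000 nt 0.535% and 0.463%. On the 5' side they fell to 1.24% (1.02 to 1.49) and 1.38% (1.15 to 1.64) in the 100 nt farthest from the end that were counted, where the intervals of the libraries overlapped. Different members fill the far bins, from 3347 in the first 100 nt past the end to 555 beyond 2000 nt, so the profile is no profile of 1 fixed set of genes.

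**Figure D1:**
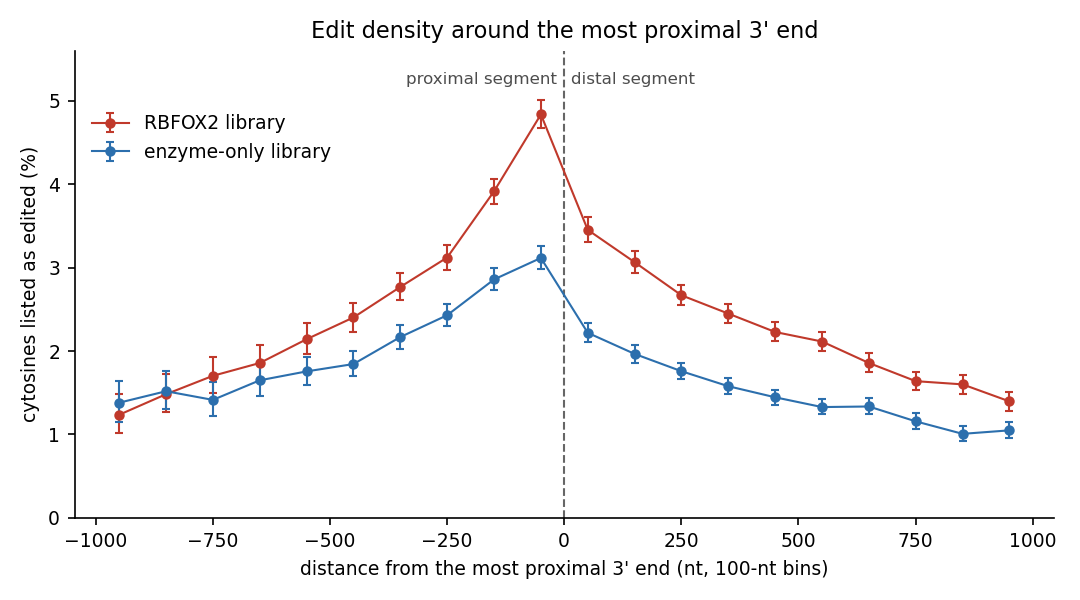
Percent of cytosines listed as edited (y axis) against distance from the most proximal 3' end in 100-nt bins (x axis, negative in the proximal segment) for the RBFOX2 library (red) and the enzyme-only library (blue), unshared sites of the members listed in either table, with exact 95% intervals. Both curves peak in the last 100 nt before the end, at 4.84% and 3.12%, and drop to 3.45% and 2.22% in the next 100 nt.

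Last exons of genes outside the rule had no such fall towards the 3' side. In 2224 last exons of at least 1000 nt in these genes, the part 3' of the midpoint had a density of 1.50% (1.47 to 1.54) in the RBFOX2 library, against 1.09% (1.06 to 1.12) in the enzyme-only one. The part 5' of the midpoint had 1.08% (1.05 to 1.10) and 0.931% (0.903 to 0.958). The direction was thus the opposite of that between distal and proximal segments, but a midpoint and an isoform end are unlike cuts. Within the proximal segments of members the density also rose towards the 3' side, from 1.24% to 4.84% in the RBFOX2 library. Both segments of members were denser than these last exons, so the comparison is of direction only. Past the most distal end, within 1000 nt and outside isoform exons, there were 0 unshared RBFOX2 sites and 1 unshared enzyme-only site for the members. That end was set by the isoform models of the same libraries, so few sites could be listed past it.

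Distal segments held more RBFOX2 than enzyme-only sites. Their ratio was 1.50 (1.46 to 1.54), against 1.34 (1.30 to 1.38) in proximal segments and 1.21 over all exonic unshared sites (106107 and 87870). The gene reads of the members listed in both tables had a median ratio of 1.11. The distal ratio was 1.12 times the proximal one (1.08 to 1.17), but not where coding cytosines were left out. Among 3'UTR cytosines the ratios were 1.51 (1.47 to 1.54) and 1.49 (1.43 to 1.55), 1.01 times each other (0.967 to 1.06), while coding cytosines of proximal segments had a ratio of 1.11 (1.06 to 1.17). With 500 nt counted on either side of the proximal end they were 1.39 and 1.41. Within 3'UTR no difference between distal and proximal segments was therefore detectable in this ratio.

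The ratio was higher at cytosines that APOBEC1 prefers, and it was higher the more converted reads a site had. After A or U the distal ratio was 1.64 (1.59 to 1.68), and after C or G it was 1.06 (1.01 to 1.12). At distal sites with 1 converted read it was 1.35 (1.31 to 1.38), with 2 it was 2.00 (1.86 to 2.16), with 3 to 4 it was 3.63 (3.18 to 4.16) and with 5 or more it was 8.73 (6.40 to 12.2; 393 and 45 sites). These classes leave out 2480 distal sites listed in both libraries, whatever their converted reads. Values by class with those sites kept were not computed, so how far the rise depends on leaving them out is unknown. In the 397 members with over 500 reads in both libraries, where a site needs at least 2 converted reads to be listed, the distal ratio was 2.32 (2.14 to 2.53), and in those with at most 500 in both it was 1.50 (1.46 to 1.54). By distance past the proximal end, the ratio was 1.55 (1.50 to 1.60) up to 500 nt, 1.47 (1.41 to 1.54) in the next 500 nt, 1.55 (1.44 to 1.67) up to 1500 nt, 1.20 (1.06 to 1.36) up to 2000 nt and 1.15 (0.976 to 1.36) beyond, where only long segments reach. Segments of 2000 nt or more had a ratio of 1.25 (1.18 to 1.31) over their whole length, and the 3 shorter classes of length had ratios of 1.54 to 1.60. Within these 557 long segments the ratio was 1.42 (1.30 to 1.55) up to 500 nt, 1.22 (1.10 to 1.37) in the next 500 nt and 1.11 (0.963 to 1.27), 1.05 (0.892 to 1.23) and 1.15 in the bins beyond. By the place of the proximal end, the ratio was 1.59 (1.49 to 1.70) for ends in coding sequence and 1.48 (1.44 to 1.52) for ends in 3'UTR. Ends with a signal and no A-rich sequence gave 1.56 (1.49 to 1.62), and the others gave 1.47 (1.43 to 1.52).

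**Figure D2:**
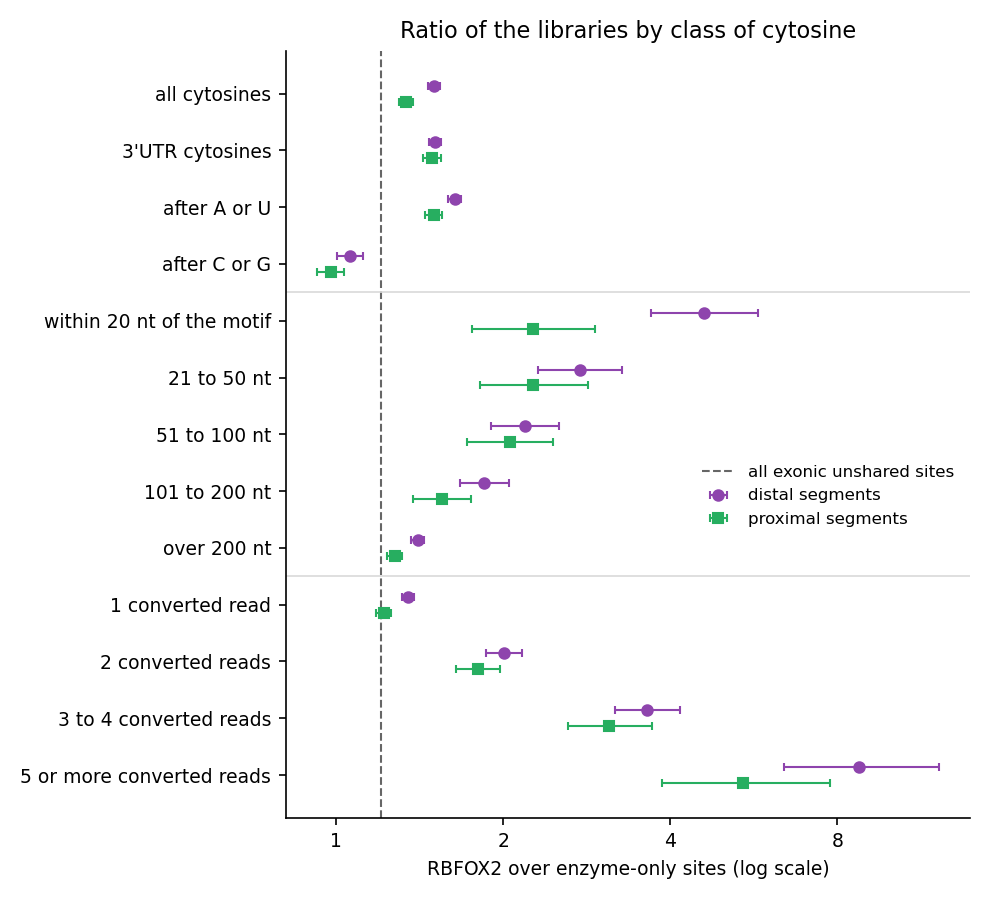
Number of RBFOX2 over enzyme-only sites (x axis, log scale) by class of cytosine or site for distal (purple circles) and proximal segments (green squares), with exact 95% intervals, and the ratio of all exonic unshared sites, 1.21, as a dashed line. The distal ratio reaches 4.59 within 20 nt of UGCAUG and 8.73 at sites with 5 or more converted reads, while the 3'UTR ratios of both segments overlap.

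UGCAUG was the hexamer most enriched around distal RBFOX2 sites. The motif was searched on the strand of the transcript. Within 50 nt of a UGCAUG lay 964 of 16374 distal RBFOX2 sites (5.89%; 5.53 to 6.26), whereas 3.08% of distal cytosines did, an enrichment of 1.91 (1.80 to 2.03). In the enzyme-only library 283 of 10913 sites (2.59%) did, an enrichment of 0.843 (0.748 to 0.945). In proximal segments the values were 1.66 (1.51 to 1.81) and 0.978 (0.851 to 1.12). Of 3530 hexamers with at least 100 distal sites within 50 nt, both libraries together, UGCAUG ranked 1 by RBFOX2 enrichment and 1 by the ratio of the libraries (2.27), and 2521 by enzyme-only enrichment. The next by ratio, GCAUGU at 1.91, overlaps it in sequence. By RBFOX2 enrichment UAUAUA (1.85) and AUAUAU (1.81) came next, within the interval of UGCAUG. Both were also enriched in the enzyme-only library (1.51 and 1.36). When sites listed in both libraries were kept, the enzyme-only value turned to 1.06 in distal segments and was 1.06 in proximal ones as well.

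Close to the motif the unshared sites of distal segments differed from those of proximal ones. Within 20 nt of UGCAUG there were 464 RBFOX2 and 101 enzyme-only distal sites, a ratio of 4.59 (3.70 to 5.76), against 208 and 92 proximal sites, a ratio of 2.26 (1.76 to 2.92). The distal ratio was 2.03 times the proximal one (1.45 to 2.85), and 1.87 times (1.26 to 2.75) among 3'UTR cytosines. Without ZFAND5, the member with the most such sites, the distal ratio was 4.74. It fell with distance, to 2.75 at 21 to 50 nt, 2.19 at 51 to 100 nt, 1.85 at 101 to 200 nt and 1.40 (1.37 to 1.44) beyond, where the proximal ratio was 1.28 (1.24 to 1.32). In the 20 nt on the 5' side of a distal UGCAUG 4.30% (3.76 to 4.89) of cytosines were listed in the RBFOX2 library, against 0.769% (0.547 to 1.05) in the enzyme-only one. On the 3' side the densities were 4.53% (3.98 to 5.13) and 0.998% (0.746 to 1.31). The enzyme-only density near the proximal motif was higher, at 2.34% (1.72 to 3.10) and 2.36% (1.70 to 3.19). The cytosine inside the distal motif was listed at 0.741% in each library, 10 of 1349. Sites listed in both libraries are left out of all these counts. Within 50 nt of UGCAUG they numbered 154 in distal and 63 in proximal segments. Keeping them would lower the ratios near the motif, and by how much within 20 nt was not computed. Within 50 nt the unshared sites numbered 964 RBFOX2 and 283 enzyme-only in distal segments, and 471 and 208 in proximal ones. With sites listed in both libraries kept, the RBFOX2 enrichment within 50 nt was 1.93 (distal) and 1.63 (proximal). The enzyme-only enrichment was then 1.06 in both, so the segments did not differ in it.

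**Figure D3:**
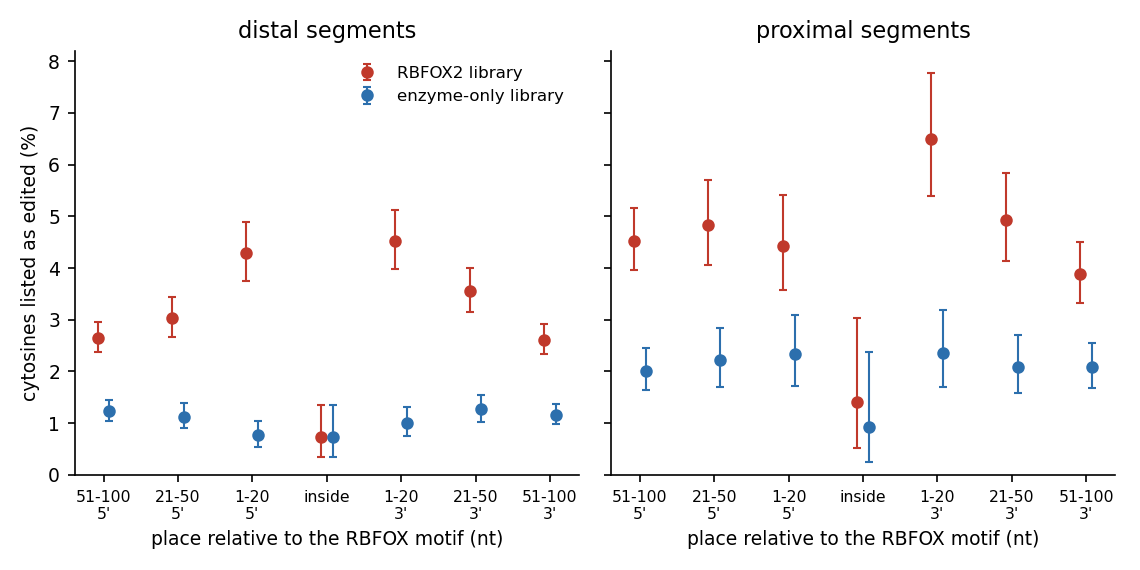
Percent of cytosines listed as edited (y axis) by place relative to the nearest UGCAUG (x axis, nt 5' or 3' of it) in distal (left) and proximal segments (right) for the RBFOX2 library (red) and the enzyme-only library (blue), with exact 95% intervals. In distal segments the RBFOX2 density rises to 4.30% and 4.53% in the 20 nt on either side and the enzyme-only density is 0.769% and 0.998% there.

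Most distal motifs had no listed site. Of 1345 distal UGCAUG of the listed members, 397 (29.5%; 27.1 to 32.0) had an RBFOX2 site within 50 nt and 213 (15.8%; 13.9 to 17.9) an enzyme-only site, and 3 or more sites lay near 146 and 17 of them. Proximal motifs had a site more often in both libraries, with 197 (46.1%) and 131 (30.7%) of 427. Members without a distal UGCAUG had a ratio of distal sites of 1.41 (1.36 to 1.45), those with 1 had 1.64 (1.56 to 1.72), those with 2 had 1.90 (1.74 to 2.09), and the 49 with 3 or more had 1.72 (1.45 to 2.04), so the excess was not limited to members with the motif.

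Single members gave few sites each. Of the 3347 listed members, 2246 had a distal RBFOX2 site and 2139 an enzyme-only site, 1745 had both, and 707 had neither. The 10 members with the most distal RBFOX2 sites held 2.80% of them. Of 998 members with at least 10 distal sites over both libraries, 311 (31.2%) were over 2-fold higher in the RBFOX2 library after scaling by the library totals and 129 (12.9%) over 2-fold lower, with a median log2 ratio of 0.42. Whole last exons of all 3337 genes with as many sites gave 25.4% higher and 16.1% lower, with a median of 0.22. Proximal segments of the same last exons gave 174 and 106 of 645. In genes of 500 reads or more, sites need at least 2 converted reads to be listed, and in 34 of the 998 members the libraries lay on different sides of that limit or the gene was in 1 table only. These 34 included 27 of the 129 lower members, and among the other 964 the counts were 307 (31.8%) higher and 102 (10.6%) lower. Within the RBFOX2 library, 628 of 1031 members with at least 10 sites were denser in the proximal segment and 403 in the distal one. In the enzyme-only library these counts were 433 and 224 of 657.

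**Figure D4:**
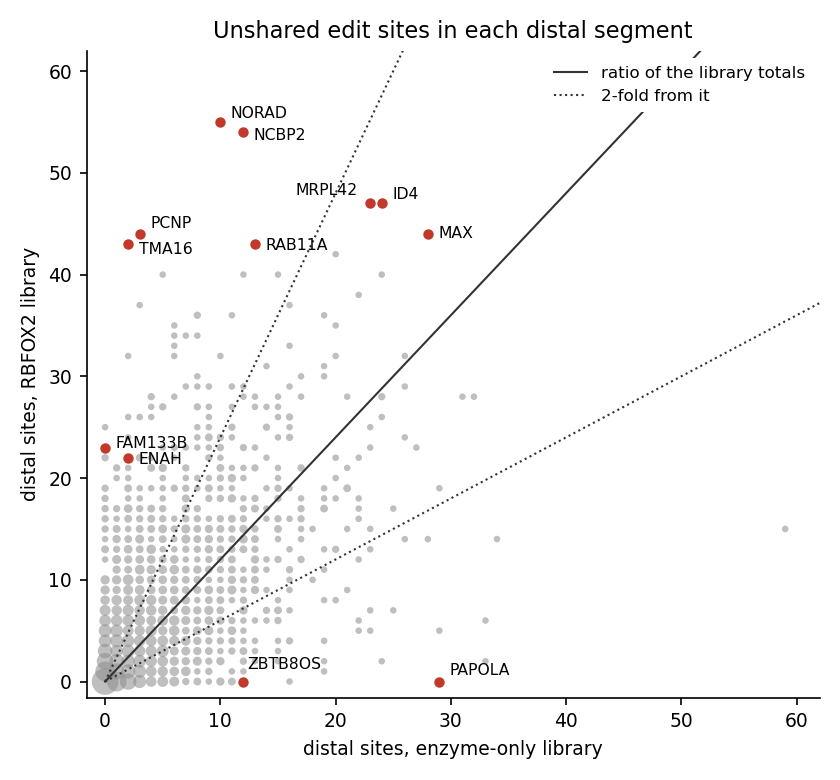
Unshared sites in each distal segment in the RBFOX2 library (y axis) against the enzyme-only library (x axis), 1 grey point per pair of values with its area growing with the number of members there, and named members in red. The solid line is the ratio of the library totals and the dotted lines are 2-fold from it; TMA16 (43 and 2 sites) and PCNP (44 and 3) lie far above them, and PAPOLA (0 and 29) lies below.

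The 8 members with the most distal RBFOX2 sites were NORAD, NCBP2, ID4, MRPL42, MAX, PCNP, TMA16 and RAB11A, with 43 to 55 sites each. They were chosen for this number, which raises their ratios of RBFOX2 over enzyme-only sites, so these ratios are a description. NORAD, a long non-coding RNA that binds Pumilio proteins, had 55 RBFOX2 and 10 enzyme-only sites in its distal segment of 4109 nt (chromosome 20, 36045624 to 36049733) at 197 and 158 gene reads, a scaled log2 ratio of 2.14 (1.21 to 3.33). NCBP2, the small subunit of the nuclear cap-binding complex, had 54 and 12 sites in 1448 nt (chromosome 3, 196935407 to 196936855), a ratio of 1.86 (0.99 to 2.94). These sites covered 23.4% and 5.19% of its distal cytosines. Sites of both libraries were spread over the whole segment in these 2 genes.

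TMA16 and PCNP had the largest excess among these 8. In TMA16, a ribosome biogenesis factor, 43 of 135 distal cytosines (31.9%) were listed in the RBFOX2 library, against 2 (1.48%) in the enzyme-only one, at 299 and 236 reads (chromosome 4, 163519555 to 163520737). Its proximal segment of 222 nt held 3 sites in each library. The log2 ratio of the distal segment was 3.86 (2.22 to 7.25). In PCNP, a PEST-containing nuclear protein, 44 of 234 distal cytosines were listed against 3, at 687 and 536 reads and thus with at least 2 converted reads per site in both libraries, a ratio of 3.41 (1.97 to 5.94). Its proximal segment held 5 and 2 sites. With sites listed in both libraries kept, the ratios were 2.28 in TMA16 and 2.43 in PCNP. Neither distal segment contains UGCAUG, nor does that of NORAD. The shorter and secondary RBFOX2 motifs that the study also counted were not searched in these segments.

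RAB11A, a small GTPase of recycling endosomes, had 43 and 13 distal sites, a log2 ratio of 1.42 (0.54 to 2.48). Many of its enzyme-only sites lay just past the proximal end, whereas most RBFOX2 sites lay in the 3' part of the segment. ID4, an inhibitor of DNA binding, had 47 and 24 sites with a ratio of 0.69 (−0.03 to 1.48), and 7 and 0 of them lay near its UGCAUG motifs. MRPL42, a mitochondrial ribosomal protein, also had 47, with 23 enzyme-only sites and a ratio of 0.75 (0.02 to 1.55). MAX, the dimer partner of MYC, had 44 and 28, a ratio of 0.38 (−0.33 to 1.13). The intervals of ID4 and MAX included 0, so no difference was detectable in them at this depth. A large number of RBFOX2 sites thus went with widely different enzyme-only numbers, from 2 to 28.

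The 5 members with the highest ratio had no unshared enzyme-only site in the distal segment. They were chosen for this ratio and reached the minimum number of sites through the RBFOX2 library alone. Their counts of 0, fold values and intervals are thus a description. FAM133B had 23 RBFOX2 sites among 213 distal cytosines. A count of 0 allows up to 3 sites per library, so against this floor FAM133B was at least 6.39-fold higher in the RBFOX2 library, and the interval of its log2 ratio, which also holds the counting error of the 23 sites, began at 2.26. UBE2B, a ubiquitin-conjugating enzyme, and SEPHS1, a selenophosphate synthetase, had 22 sites each and were at least 6.11-fold higher against the floor, with intervals from 2.19. TRIM32, a ubiquitin ligase, and DENND5A, a regulator of RAB GTPases, had 19 each and were at least 5.28-fold higher against it, with intervals from 1.96. In 4 of these 5, distal RBFOX2 sites lay within 50 nt of a distal UGCAUG, with 7 in FAM133B, 9 in UBE2B, 8 in TRIM32 and 7 in SEPHS1. The distal segment holds 2 such motifs in FAM133B and 3 in SEPHS1, and none in DENND5A. With sites listed in both libraries kept, the log2 ratios were 3.09 in FAM133B, 3.71 in UBE2B and SEPHS1, and 3.51 in TRIM32 and DENND5A. Such sites lay in all 5 distal segments, so the counts of 0 hold for unshared sites only. UBE2B has A-rich genome sequence after its proximal end. Among the other named members ID4, TOB1, DAZAP1, DICER1, PABPN1 and AKAP12 have it too.

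The 5 members with the lowest ratio, chosen for it among the same 964, had 9 to 12 enzyme-only sites, and their values are likewise a description. ZBTB8OS and TOLLIP reached the minimum of 10 sites through the enzyme-only library alone. ZBTB8OS, the human archease, had 12 enzyme-only sites and no RBFOX2 site, with 74 and 85 gene reads, and was at least 4.80-fold lower against the floor of 3 sites, with an interval of the log2 ratio up to −1.74. TOLLIP, an adaptor of Toll-like receptor signalling, had 0 and 10 sites at 176 and 183 reads, at least 4.0-fold lower against the floor with an interval up to −1.43, although it has 4 distal UGCAUG, within 50 nt of which 4 of the enzyme-only sites lay. ERCC6L2, a DNA repair factor, had 1 and 12 sites, a log2 ratio of −3.32 (−9.27 to −1.09). TMEM43, a protein of the inner nuclear membrane, had 1 and 11, a ratio of −3.20 (−9.15 to −0.94). The RNA-binding protein DAZAP1 had 1 and 9, a ratio of −2.93 (−8.89 to −0.58). Apart from TOLLIP, none of these has a distal UGCAUG. In ERCC6L2 the proximal end lies in coding sequence and carries no signal.

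The members that follow were chosen for a large difference between their 2 segments, so these values are a description. Of 332 members with at least 10 sites in each segment, the largest distal over proximal difference of the scaled log2 ratio was found in NFYC, a subunit of the CCAAT-binding factor NF-Y. Its distal segment of 503 nt held 15 RBFOX2 and 0 enzyme-only sites, and its proximal segment held 7 and 9. TRIM32 followed with 19 and 0 distal against 5 and 5 proximal sites, and TMEM106B, a lysosomal membrane protein, with 10 and 0 against 5 and 8. SEPHS1 had 22 and 0 against 10 and 5, and TOB1, an antiproliferative factor that recruits deadenylases, had 10 and 0 against 7 and 7. The distal counts of 0 allow up to 3 sites. Each of these distal segments had its 10 sites or more from the RBFOX2 library alone. Against the floor the distal ratio was at least 2.78-fold above that of the library totals in TMEM106B and TOB1, but their intervals began at a log2 ratio of 0.90. With sites listed in both libraries kept, the distal log2 ratio of NFYC was 2.54.

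The opposite pattern was found in TRA2B, a splicing activator, with 9 and 3 distal against 17 and 0 proximal sites. ISCA2, an iron-sulfur assembly factor, had 12 and 8 against 11 and 0. UBQLN1, a ubiquilin, had 8 and 9 against 17 and 1, and MZT1, a subunit of the γ-tubulin ring complex, had 7 and 15 against 28 and 7. ZFAND1 had 5 and 11 against 8 and 2. Only ZFAND1 among these has a distal UGCAUG, and none of its RBFOX2 sites lay near it. The intervals of the distal log2 ratio included 0 in all 5, from −1.33 (−3.28 to 0.24) in ZFAND1 to 1.18 (−0.68 to 3.84) in TRA2B.

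**Figure D5:**
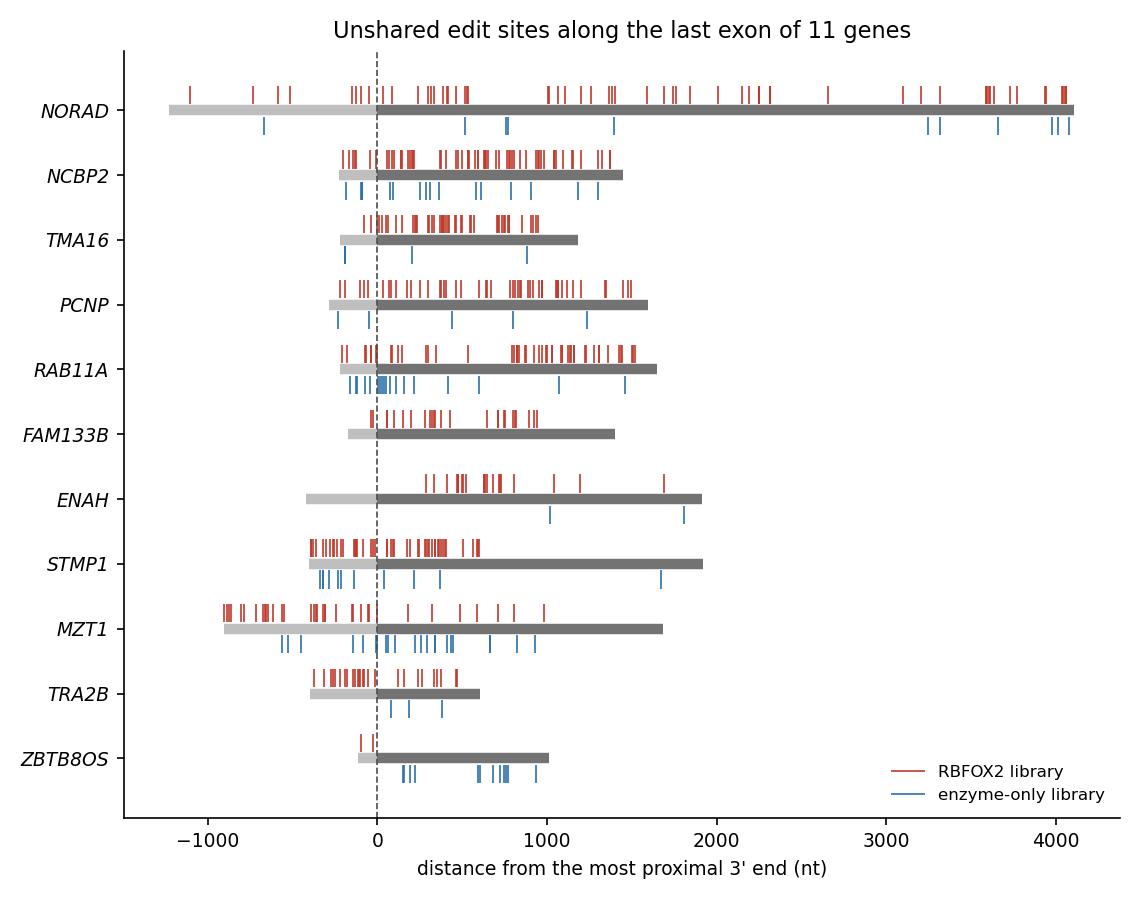
Unshared edit sites of 11 genes along the last exon, with distance from the most proximal 3' end in nt on the x axis, proximal segments in light grey and distal segments in dark grey, RBFOX2 sites as red ticks above and enzyme-only sites as blue ticks below. TMA16 and PCNP have 43 and 44 distal RBFOX2 ticks over their distal segments against 2 and 3 blue ones, ENAH has no tick before the proximal end, and ZBTB8OS has 12 blue distal ticks and 0 red ones.

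The next members were chosen for their number of RBFOX2 sites near a distal UGCAUG, which is thus no finding. ENAH, a regulator of actin polymerization, has 3 distal UGCAUG. It had 22 RBFOX2 and 2 enzyme-only distal sites at 960 and 789 reads, 13 and 0 of them within 50 nt of a UGCAUG, and 0 sites of either library in the proximal segment, a distal log2 ratio of 2.91 (1.17 to 6.33). Its site with the most converted reads, 8 at position 225496711, lay 27 nt from a motif. STMP1, a mitochondrial micropeptide, had 27 and 4 distal sites, 10 and 1 near a motif, a ratio of 2.35 (0.97 to 4.47). COPS7A, a subunit of the COP9 signalosome, had 36 and 8, with 9 and 2 near a motif, a ratio of 1.84 (0.78 to 3.22).

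Sites near the motif did not always come with an excess over the whole segment. ARL2BP, a partner of the GTPase ARL2, had 10 RBFOX2 and 0 enzyme-only sites near its single distal UGCAUG, and 31 and 14 over the segment, a log2 ratio of 0.86 (−0.07 to 1.91). FHL1, a LIM domain protein, had 10 and 4 near a motif and 38 and 22 in all, a ratio of 0.51 (−0.27 to 1.35). PGRMC1, a haem-binding membrane protein, had 10 and 5 near a motif and 21 and 13 in all, a ratio of 0.41 (−0.64 to 1.55) at 1090 and 989 reads. The site of PGRMC1 directly next to a motif, at position 119243676, had 22 converted reads, the most among the named members, where the most at any of its distal enzyme-only sites was 4. When a site had to reach the higher of the 2 read minimums in either library, the ratio of PGRMC1 was 2.36.

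Of the genes the study discussed for RBFOX2, DCUN1D4, DEPDC1 and OGT were members, and APP and PKM were not. DCUN1D4, a neddylation factor, had 11 RBFOX2 and 4 enzyme-only sites in a distal segment of 2919 nt (chromosome 4, 51913916 to 51916835), a log2 ratio of 1.09 (−0.56 to 3.30). The 4 enzyme-only sites lay 22 to 176 nt past the proximal end and the RBFOX2 sites 114 to 2489 nt past it. The segment has no UGCAUG. DEPDC1 had 14 and 7 sites in 2659 nt (chromosome 1, 68474147 to 68476806), a ratio of 0.69 (−0.67 to 2.29), with 1 site of each library near a UGCAUG. OGT, the O-GlcNAc transferase, had 14 and 10 sites with a log2 ratio of 0.20 (−1.05 to 1.55), none of them near its UGCAUG. All 3 intervals included 0.

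The 3 longest distal segments with a site held almost none. CCND2, which encodes cyclin D2, has a distal segment of 5058 nt with 1 enzyme-only site, and the gene was not in the RBFOX2 table. RIMOC1 had 0 RBFOX2 and 1 enzyme-only site in 4291 nt, at 203 and 165 reads. AKAP12, a scaffold for protein kinase A, had 1 and 2 sites in 4289 nt, and its proximal end lies in coding sequence and is followed by A-rich genome sequence.

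Genes of the cleavage and polyadenylation machinery showed no common direction. Of 21 such genes 11 were members and 10 were listed, with 48 RBFOX2 and 70 enzyme-only distal sites, or 48 and 41 without PAPOLA. The 5 with at least 10 sites had a median log2 ratio of −0.26, or 0.05 without PAPOLA, against 0.42 for all 998 members with as many. Among them CPSF6, a subunit of cleavage factor I, was over 2-fold higher with 11 and 3 sites (1.45; −0.31 to 4.09). NUDT21, another subunit of that factor, had 16 and 17 sites, CPSF7 had 9 and 9, and CPSF2, of the specificity factor, had 8 and 5. The poly(A) polymerase PAPOLA had 0 RBFOX2 sites and 29 enzyme-only sites, each with 1 converted read, at 516 and 488 reads, so such sites could be listed in the enzyme-only library only. The others had at most 4 distal sites in a library, and PABPN1 was not in the RBFOX2 table.

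Genes known for alternative 3'UTRs had more RBFOX2 than enzyme-only sites in 4 of the 7 listed cases. Of 16 such genes 10 were members and 7 were listed, with 52 and 22 distal sites, and of the 5 with at least 10 sites 4 were over 2-fold higher and 1 lower, with a median log2 ratio of 1.52, where 31.2% and 12.9% of all 998 members were called and the median was 0.42. The intervals of ELAVL1 and CDC42 included 0. DICER1, the microRNA-processing nuclease, had 11 and 1 (2.68; 0.41 to 8.62), and 3 and 0 of these lay near its UGCAUG. PAK1, a protein kinase, had 12 and 2 (2.06; 0.15 to 5.52), the RNA-binding protein ELAVL1 had 15 and 4 (1.52; −0.01 to 3.69), and the GTPase CDC42 had 10 and 3 (1.32; −0.48 to 3.97). VMA21, an assembly factor of the vacuolar ATPase, had 4 and 8 (−1.18; −3.45 to 0.64). CD47, an immune ligand, had 0 and 3 sites, which is within the limit of 3 that a count of 0 allows, and CCND1 was not in the RBFOX2 table.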

How the data were processed

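The authors deposited, per library, the count of converted reads at each C-to-U site, the count of reads of its gene, an edit fraction and a confidence score. The fraction equals converted reads over gene reads and is above 0.2% at every listed site, so sites with 1 converted read are not listed in genes of 500 reads or more; the score was not used. The deposited isoform models of both libraries give hg38 exon positions and no expression. The labels name an Iso-Seq library kit. The methods of the study name pbmm2 and the authors' own edit caller, but also another kit (Kinnex), IsoQuant and replicates, so these tables may stem from another run. The collapse tool and its settings are not given in the sources used here.

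Segments were built per gene from 1 shared last exon start, the one with the most isoforms. Positions were counted once, against all cytosines of the segment in the hg38 reference, on the strand of the gene. Annotation and symbols came from GENCODE 44. The main comparisons used unshared sites, those in only 1 of the tables. Members listed in either table entered. An A-rich end had a run of 6 A or 12 A in the 20 nt after it. Log2 ratios used a pseudocount of 0.5 and were scaled by the unshared sites of each library (109357 and 91111). A call was a ratio beyond 2-fold with at least 10 sites over both libraries. Intervals are Clopper-Pearson (95%; scipy 1.17.1, Python 3.11.15) of shares or, for ratios, of the RBFOX2 share of the sites. With 1 library per group no test was possible. The counting was tested on simulated sites with known enrichment.

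Named members were the study's RBFOX2 genes, the 8 with the most distal RBFOX2 sites, the 5 highest and 5 lowest by ratio (same side of 500 reads) and by distal minus proximal ratio, the 3 longest segments with a site, the 6 with the most RBFOX2 sites near a distal UGCAUG, and 2 gene lists, from which 1 gene is not reported here. The members and lists were chosen with earlier results of these data known. Depth was a median of 96 and 87 reads per listed gene. Alternatives were other site, read, end and window limits.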

Additional observations from a re-analysis of the deposited data

How the results depend on the processing

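No paired analysis was possible because each group has a single library, and the labels give these different numbers. Of 101 recomputed group values, 55 stayed within the limits of the reported value, 45 moved and 1 changed side, and of 134 values of named members 133 stayed within theirs. The distal density was below the proximal one in both libraries under every alternative run, and the RBFOX2 library had more distal and proximal sites under each. The cause of the shifts was not tested.

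Keeping sites listed in both libraries gave RBFOX2 over enzyme-only ratios of 1.41 (distal) and 1.28 (proximal). It turned the distal enzyme-only motif enrichment from 0.843 to 1.06, and the proximal value was then also 1.06. It moved the ratio of 11 of 45 named members by over 1.5 times, with no change of sign, among them COPS7A (log2 1.17), STMP1 (1.63) and DAZAP1 (−2.33). A pseudocount of 1 did so in 11, each with a count of 0 in 1 library. With at least 2 converted reads per site, the ratios were 2.56 and 2.20, the distal over proximal densities 0.693 (RBFOX2) and 0.597 (enzyme-only), and the motif enrichments 2.92 (distal RBFOX2), 2.45 (proximal RBFOX2) and 0.594 (proximal enzyme-only). A common read minimum gave densities of 0.610 and 0.546, ratios of 1.60 and 1.43, and 2.36 for the log2 ratio of PGRMC1. With 500 nt on either side of the proximal end, the densities were 0.582 and 0.589 and the ratios 1.39 and 1.41, so both orders turned.

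Ends at least 1000 nt apart left 2138 members, with densities of 0.571 and 0.516 and a distal ratio of 1.46. A signal and no A-rich sequence at the proximal end gave 0.556 and 0.480 and a distal ratio of 1.56. The RBFOX2 density alone moved to 0.610 in genes listed in both tables, 0.608 without coding bases in the distal segment and 0.649 without overlapping genes. Leaving out 50 nt around the proximal end gave 0.655 and a proximal ratio of 1.29. Cytosines after A or U gave ratios of 1.64 and 1.50. Motif windows of 20 and 200 nt gave distal enrichments of 2.12 and 1.46 (RBFOX2) and 0.694 and 0.946 (enzyme-only), and 200 nt gave 1.45 for proximal RBFOX2 sites. At least 20 sites per member left 113 of 443 members higher (25.5%) and 37 lower (8.35%), where whole last exons of all genes gave 24.2% and 12.1%.

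Chosen after seeing the data, 3'UTR cytosines gave densities of 0.535 and 0.529 and a proximal ratio of 1.49. Ends used by at least 2 isoforms (1650 members) gave 0.540 and 0.513 and a proximal ratio of 1.41. The other alternatives added then, on gene reads, mitochondrial members and genes in both tables, moved nothing beyond its limits.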

Other observations

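The distal segments held 2480 sites that both tables list and that enter no value above, of which 154 (6.21%; 5.29 to 7.23) lay within 50 nt of UGCAUG, an enrichment of 2.02 (1.72 to 2.35) that overlaps the 1.91 of the unshared RBFOX2 sites. Of these 2480, 92.8% lay directly after A or U. The edit fraction was higher in the enzyme-only library at 1505 of them and in the RBFOX2 library at 954. The fraction divides converted reads by the reads of the gene, so that it differs through the gene reads alone where the converted reads are equal. At the 1206 sites with 1 converted read in both libraries it was higher in the enzyme-only library at 1036. More converted reads were counted in the RBFOX2 library at 783 and in the enzyme-only library at 267. The 1650 shared sites of proximal segments had an enrichment of 1.43 (1.10 to 1.82).

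The 84 listed members among lncRNA genes had 196 RBFOX2 and 98 enzyme-only distal sites, a ratio of 2.00 (1.56 to 2.58), to which NORAD gave 55 and 10.

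The 4 members with the most distal enzyme-only sites fall outside the rule for named members and were chosen after their values were seen. CD164 had 15 RBFOX2 and 59 enzyme-only distal sites at 503 and 388 reads, TXNDC5 had 2 and 33 at 621 and 498, and TUSC2 had 6 and 33 at 523 and 453. In these 3 the RBFOX2 library had over 500 reads, where single converted reads are not listed, and the enzyme-only library had fewer. STC2 had 14 and 34 at 473 and 492 reads, where the same read minimum held in both.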
